A study of Mus musculus with 7 samples.

Results

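Junb, Atf3 and Btg2 were described in astrocytes from the brains of 7 mice, each measured on 1 single-colour Affymetrix array. They were found by symbol in the authors' deposited fold change table, which pairs probe sets with gene names, and each symbol had 1 probe set, so that 3 of the 22206 probe sets of the value table are described here. The arrays form 3 groups. CETP transgenic mice (B6.CBA-Tg(CETP)5203Tall/J, a strain with a human transgene for the cholesteryl ester transfer protein) on a diet with 1% cholesterol were replicates 1, 2 and 3 (n = 3). CETP transgenic mice labelled as standard diet were replicates 4 and 5 (n = 2), and wild-type mice on the standard diet were replicates 2 and 3 (n = 2). The cholesterol diet lasted 2 months, from the age of 2 to 4 months. The labels' growth protocol gives it for transgenic mice as such, so the diet of replicates 4 and 5 rests on their own label, and age is not given separately for the standard-diet animals. Per the labels, all 7 preparations were whole-brain cells taken with an ACSA-2 magnetic kit, more than 70% of them positive for GFAP by flow cytometry, so other brain cells could make up the remainder. In such bulk preparations a change in the share of a cell type and a change in RNA per cell cannot be told apart.

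Immediate early genes are switched on within minutes of a stimulus, without new protein synthesis, by factors that are already present in the cell, and their messages are short-lived. They are known from growth factor, calcium and stress signalling, and taking tissue apart into single cells is a known trigger of them in brain cells. Junb encodes a subunit of the AP-1 transcription factor, a dimer of leucine zipper proteins. Atf3 encodes a stress-induced leucine zipper protein that can pair with Jun proteins and mostly represses. Btg2, a target of the tumour suppressor protein encoded by Trp53, encodes an antiproliferative adaptor that binds the CCR4-NOT complex, which shortens the poly(A) tails of messages. 

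The members were selected on measured values. The only gene names at hand were those of the fold table, whose entries have folds of 1.4 or more, in either direction, for the 2 CETP groups. The members were picked from it with the results of these arrays known. Their difference between the CETP diet groups is therefore given as a description, and their differences from wild type, which use the same CETP arrays, are not independent evidence. Under equal spread, the mean over all 5 CETP arrays is uncorrelated with the difference that chose the table, so this comparison with wild type is the one least tied to the selection.

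All 3 members were highest on the same array, CETP standard-diet replicate 4, as were 9.86% of all probe sets. Junb led the next array, cholesterol-diet replicate 3, by only 0.17 log2 units, a gap reached on this array by 4.70% of probe sets. The members were named through a table chosen on the CETP diet groups, which favours such a peak. The sequences around their starts are shown because all 3 were highest there. Each window runs from 250 bases before to 50 bases after the start in RefSeq (GRCm38.p6, gene strand, 5′ to 3′). Capitals mark the core of the cAMP response element (TGACG, or CGTCA on the other strand) and the CCAAT box (CCAAT, or ATTGG on the other strand). The element is the site of CREB and ATF proteins.
Junb, chr8:84978699-84978998, minus strand: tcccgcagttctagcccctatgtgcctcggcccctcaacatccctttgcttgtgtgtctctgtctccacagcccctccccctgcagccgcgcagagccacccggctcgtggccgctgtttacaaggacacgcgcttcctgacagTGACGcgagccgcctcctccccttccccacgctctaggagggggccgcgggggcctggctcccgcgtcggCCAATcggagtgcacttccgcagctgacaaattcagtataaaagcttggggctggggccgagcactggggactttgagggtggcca
Atf3, chr1:191183284-191183583, minus strand: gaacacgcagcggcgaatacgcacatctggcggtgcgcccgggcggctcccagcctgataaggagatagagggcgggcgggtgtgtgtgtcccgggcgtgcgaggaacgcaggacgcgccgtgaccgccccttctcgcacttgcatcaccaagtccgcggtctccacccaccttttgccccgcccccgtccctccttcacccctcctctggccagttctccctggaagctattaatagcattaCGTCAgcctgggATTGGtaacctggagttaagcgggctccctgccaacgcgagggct
Btg2, chr1:134079106-134079405, minus strand: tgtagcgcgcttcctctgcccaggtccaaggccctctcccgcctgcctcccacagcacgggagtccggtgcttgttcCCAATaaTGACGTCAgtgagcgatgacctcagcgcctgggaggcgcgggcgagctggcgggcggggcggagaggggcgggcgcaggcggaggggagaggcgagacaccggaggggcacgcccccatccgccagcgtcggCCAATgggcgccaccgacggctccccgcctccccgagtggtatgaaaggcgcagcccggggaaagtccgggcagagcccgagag

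Each window held at least 1 core of the cAMP response element and at least 1 CCAAT box. The only CCAAT box of Atf3 lay 6 to 10 bases after the start. The core lay 106 to 102 bases before the start of Junb and 7 to 3 bases before that of Atf3. In Btg2 the whole palindrome TGACGTCA lay 166 to 159 bases before the start and holds the core on both strands. Of 32851 RefSeq windows of this length, 20.8% held the core, 37.4% a CCAAT box and 1.79% the whole palindrome, on either strand. The AP-1 site TGANTCA, present in 7.81% of windows, and the CArG box of serum response factor, present in 1.63%, were not among the letters of the 3 windows. A match is a description of the letters and no evidence of binding.

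Junb had the largest mean difference from wild type of the 3 members in both CETP groups. Its deposited log2 values were 9.17, 8.32 and 9.93 on the cholesterol diet, 10.10 and 9.22 on the standard-diet label, and 8.15 and 7.80 in wild type. On the deposited scale all 5 CETP arrays lay above both wild-type arrays, but the gap between cholesterol-diet replicate 2 and the higher wild-type array was only 0.17. Such a pattern, with no overlap and higher values in CETP mice, was shared by 5.12% of all probe sets. The CETP arrays themselves spread over more than the gap, and the CETP groups overlapped.

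Set against each array's own negative controls, Junb stood 1.63, 0.66 and 2.38 log2 units above the negative control median on the cholesterol diet. It stood 2.50 and 1.67 above it on the standard-diet label, and 0.68 and 0.12 above it in wild type. The wild-type arrays were thus the closest to background together with cholesterol-diet replicate 2. On this scale cholesterol-diet replicate 2, at 0.66, lay just under wild-type replicate 2, at 0.68, so the cholesterol-diet and wild-type groups overlapped. In terms of the 5222 negative control entries, Junb exceeded between 61.3% and 83.2% of them on the cholesterol-diet arrays, 85.3% and 76.6% on the standard-diet label, and 61.9% and 52.1% in wild type. No test of detection was run, and a fold against a level this near background is uncertain.

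Atf3 was high on 1 array and nearly level on the other 6. It measured 10.45, 9.86 and 10.45 on the cholesterol diet, 12.65 and 10.22 on the standard-diet label, and 9.88 and 10.45 in wild type. The value of CETP standard-diet replicate 4 lay 2.19 log2 units, or 4.57-fold, above the next array, while the other 6 arrays spanned 0.59. In 22 of 22206 probe sets (0.0991%) this array lay as far or farther above all others. Atf3 was named through a table chosen on the CETP diet groups. Without replicate 4 its difference there, cholesterol diet minus standard-diet label, was 0.030. That choice favours genes high on this array, so the share is a description and no measure of rarity. The other 6 arrays showed no order by group.

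Atf3 lay above the upper quartile of the negative controls on all 7 arrays. It stood 2.92, 2.20 and 2.90 above the negative control median on the cholesterol diet, 5.05 and 2.68 on the standard-diet label, and 2.41 and 2.76 in wild type. The lowest share of negative controls under it was 82.2%, in cholesterol-diet replicate 2, and the highest 96.5%, in CETP standard-diet replicate 4.

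Btg2 was near the negative control median except on that same array. It measured 7.36, 7.65 and 7.28 on the cholesterol diet, 8.66 and 7.25 on the standard-diet label, and 7.68 and 7.38 in wild type. Relative to the negative control median these were -0.17, -0.0093 and -0.27 on the cholesterol diet, 1.06 and -0.30 on the standard-diet label, and 0.21 and -0.30 in wild type. Btg2 was therefore above that median on 2 of 7 arrays, CETP standard-diet replicate 4 and wild-type replicate 2. The gap of replicate 4 to the next array was 0.98 log2 units, a size reached on this array by 99 probe sets (0.446%). As for Atf3, the choice of the naming table favours such a gap, so this share is a description too. The other 6 arrays spanned 0.44, and differences among them lie at background.

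**Figure D1:**
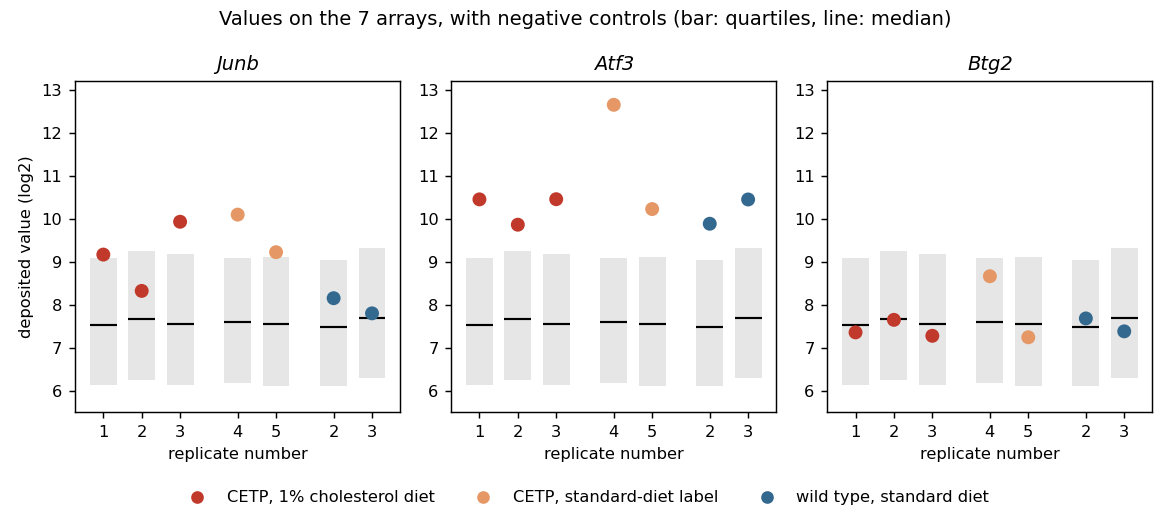
Deposited log2 values of Junb, Atf3 and Btg2 (vertical axis) on the 7 arrays by replicate number, coloured by group, with the quartile range of each array's negative controls as a grey bar and their median as a line. Atf3 lies above the upper quartile on every array and peaks at 12.65 in CETP standard-diet replicate 4, whereas Btg2 stays at the median except there.

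The first comparison set the cholesterol diet in CETP mice against wild type on the standard diet, which is the contrast the series' design text names, with genotype and diet combined. Junb averaged 9.14 ± 0.80 (SD, n = 3) in CETP mice on the cholesterol diet and 7.98 ± 0.25 (SD, n = 2) in wild type. The log2 difference was 1.16 ± 0.43 (SE), with a 95% interval of 0.19 to 2.14 before any adjustment. It did not pass the test over all probe sets (limma, adjusted p = 0.539). Atf3 differed by 0.09 ± 0.57 (adjusted p = 0.977) and Btg2 by -0.10 ± 0.37 (adjusted p = 0.952), both within the spread between arrays.

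The test called 0 of 22206 probe sets (0%) in this comparison, and 1928 had an unadjusted p under 0.05. On the deposited scale the 3 cholesterol-diet arrays lay above both wild-type arrays for Junb, as for 9.98% of all probe sets, and for neither of the other members. Without cholesterol-diet replicate 3 the Junb difference was 0.77. The hybridization spike-ins, control transcripts added to every sample, moved with this comparison. Their mean log2 level was 11.41, 11.21 and 11.77 on the cholesterol diet and 10.996 and 10.80 in wild type. With that level as a covariate the Junb difference was 0.052 ± 0.61 (SE), and the covariate itself was partly confounded with the groups. Atf3, near 0 here, turned negative without replicate 1 or 3 of the cholesterol diet and without wild-type replicate 2.

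The second comparison set CETP mice on the standard-diet label against wild type, with the diet label held equal. Junb averaged 9.66 ± 0.62 (SD, n = 2) on the standard-diet label and 7.98 ± 0.25 (SD, n = 2) in wild type, a log2 difference of 1.68 ± 0.47 (SE) or 3.21-fold (limma, adjusted p = 0.924). Both CETP arrays lay above both wild-type arrays, as for 12.2% of probe sets. Atf3 averaged 11.44 ± 1.71 on the standard-diet label and 10.17 ± 0.40 in wild type and differed by 1.27 ± 0.63 (adjusted p = 0.924). Btg2 averaged 7.95 ± 1.00 on the standard-diet label and 7.53 ± 0.21 in wild type and differed by 0.42 ± 0.40 (adjusted p = 0.948). Atf3 and Btg2 overlapped between the groups, and 0% of probe sets passed the test, with 1180 at an unadjusted p under 0.05.

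These values depended on 1 animal for 2 of the 3 genes. Without CETP standard-diet replicate 4 the difference from wild type was 0.059 for Atf3 and -0.29 for Btg2, and Junb kept 1.25. Without replicate 5 the differences were 2.48 for Atf3, 1.13 for Btg2 and 2.12 for Junb. The standard-diet spike-ins measured 11.02 and 11.22, and with them as a covariate the Junb difference was 1.23.

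The mean of all 5 CETP arrays was then set against wild type, the contrast of the series title. Junb averaged 9.35 ± 0.71 (SD, n = 5) in CETP mice and 7.98 ± 0.25 (SD, n = 2) in wild type. The log2 difference of 1.37 ± 0.40 (SE), a 2.59-fold difference, had a 95% interval of 0.48 to 2.26 before adjustment, and all 5 CETP arrays shared its direction. It did not pass over all probe sets (limma, adjusted p = 0.498), where 0% passed and 1847 had an unadjusted p under 0.05. Ordered by p, Junb was at place 301 of 22206. Atf3 differed by 0.56 ± 0.53 (adjusted p = 0.786) and Btg2 by 0.11 ± 0.33 (adjusted p = 0.952). Without any single array the Junb difference ranged from 1.18 to 1.63, and with the spike-in level as a covariate it was 0.52 ± 0.50 (SE). For Atf3 it was 0.08 and for Btg2 -0.15 without CETP standard-diet replicate 4.

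Between the CETP diet groups the member means were all lower on the cholesterol diet, which is how they came to be named. The difference, cholesterol diet minus standard-diet label, was -0.52 for Junb, -1.18 for Atf3 and -0.53 for Btg2. As a linear ratio the Junb means differed 1.43-fold, just inside the 1.4-fold floor of the fold table. For all 3 members at least 1 standard-diet array fell among or under the cholesterol-diet arrays. Without CETP standard-diet replicate 4 the differences were -0.083 for Junb, 0.030 for Atf3 and 0.18 for Btg2. No test was made on these values.

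**Figure D2:**
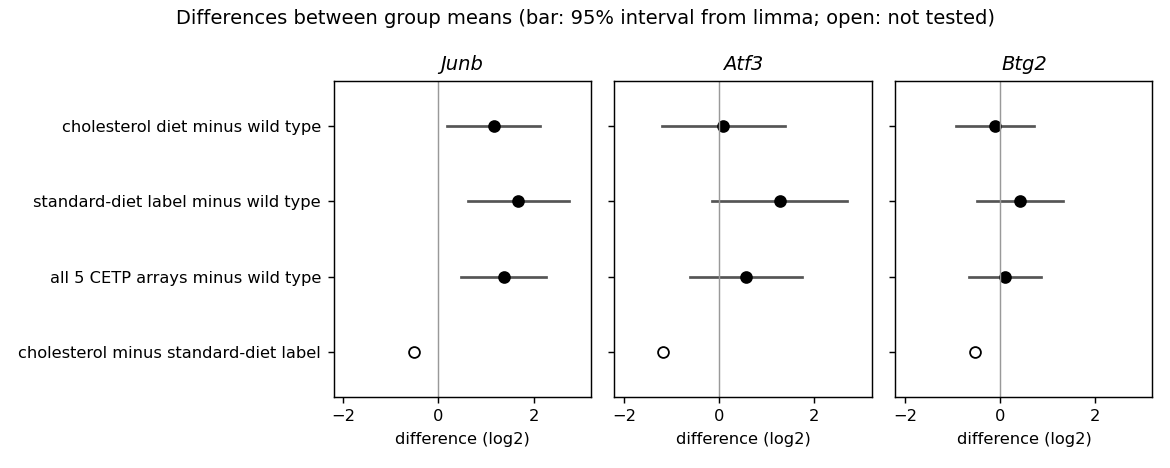
Log2 differences between group means (horizontal axis) for each member and 4 comparisons, with 95% intervals from limma as bars before adjustment and open circles where no test was made. The Junb intervals against wild type lie above 0, from 0.48 to 2.26 for all 5 CETP arrays, while those of Atf3 and Btg2 include 0.

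The members varied in different ways. Over the 7 arrays Pearson's r of the log2 values was 0.64 for Junb and Atf3, 0.34 for Junb and Btg2 and 0.82 for Atf3 and Btg2. On the 6 arrays without CETP standard-diet replicate 4 it was 0.45, -0.66 and -0.85 for the same pairs. The positive r of Btg2 with both others thus rested on that 1 array. For the other 6 arrays Btg2 is a background value, and no p is given for points that share normalization.

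That array was not generally bright. It was the highest of the 7 for 9.86% of all probe sets, whereas wild-type replicate 2 was the highest for 21.6%, and its spike-in level of 11.02 lay inside the range of the others. Negative control medians on the 7 arrays ran from 7.48 to 7.69, and the medians of all probe sets from 7.51 to 7.59. Among the gene lists, the microglial genes had the largest median difference from the wild-type mean on replicate 4. All 14 named genes of the 22 on the microglia list were highest there. These 14, like the named genes of every list, have names only through the table chosen on the CETP diet groups. All 14 had lower means on the cholesterol diet than on the standard-diet label. That choice favours a peak on replicate 4, and the unnamed genes of the list were not seen. The log2 of their summed linear values was 13.12 to 13.93 on the cholesterol diet, 16.11 and 13.44 on the standard-diet label, and 12.60 to 13.23 in wild type. The complement gene C1qa measured 13.62 on replicate 4 and 7.59 to 10.44 elsewhere, and Mpeg1, a macrophage pore-forming protein gene, 10.72 there and at most 7.15 elsewhere. Of the 14 genes, Aif1, Tyrobp, Fcer1g, Mpeg1 and 1 other did not exceed the negative control median on any of the 6 other arrays. The median difference of the 14 between the standard-diet label and wild type was 2.03, and 0.54 without replicate 4, a setting chosen after seeing the data. Between the cholesterol diet and wild type the median of the 14 was 0.76, with 13 means higher, 1 lower and 0 past the test. Their part in the member values was not tested.

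Other cell types and stress genes moved less on that array. Of 6 named endothelial genes 5 were highest there, and the log2 summed level was 12.10 to 12.40 on the cholesterol diet, 13.31 and 12.58 on the standard-diet label, and 11.84 to 12.04 in wild type. Flt1, a vessel receptor gene, differed between the standard-diet label and wild type by 1.23 ± 0.30 (SE) and the vessel receptor gene Tek by 0.97 ± 0.42, neither past the test. Of 6 named heat shock genes 3 were highest on replicate 4 and the other 3 on wild-type replicate 2. Hsph1, a chaperone gene that stress induces, measured 14.42 on replicate 4 and 11.76 to 13.37 on the rest. Its mean differed from wild type by -0.66 on the cholesterol diet and -0.27 on the standard-diet label, and it was named after its values were seen. The small heat shock protein gene Hspb1 measured 12.01 on replicate 4 and 9.22 to 11.19 on the rest. For Hspb1 these differences were 0.49 and 0.84. Heat shock sums were 15.61 to 15.83 on the cholesterol diet, 16.59 and 16.05 on the standard-diet label, and 15.95 to 16.55 in wild type. Whether they bear on the members was not tested.

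The label of the cells could be checked with only 2 of 16 astrocyte markers. Sox9, an astrocyte transcription factor, measured at least 14.43 on every array and Slc1a3, the glutamate transporter GLAST, at least 11.59, and on no array was either at or under the median of the negative controls. Some markers of other cells were as high. The choroid plexus gene Ttr measured at least 14.99 on every array and the oligodendrocyte gene Olig2 at least 12.80. Kl, of the choroid plexus list, was at or under that median on 5 arrays. These levels therefore do not settle the share of astrocytes. The mural list had 3 named genes of 13, led by the smooth muscle kinase gene Mylk, which differed by 1.83 ± 0.37 (SE) between the standard-diet label and wild type (limma, adjusted p = 0.607). Against wild type, median log2 differences on the cholesterol diet were 0.28 for mural genes, 0.84 for astrocyte genes, -0.45 for 3 choroid plexus and ependymal genes, 0.86 for the only neuronal gene and 0.81 for the only oligodendrocyte gene. On the standard-diet label they were 0.63 for mural, 0.22 for astrocyte, 0.25 for choroid plexus and ependymal, 0.34 for neuronal and 0.06 for oligodendrocyte genes. Markers of oligodendrocyte precursors and red blood cells had no named member.

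**Figure D3:**
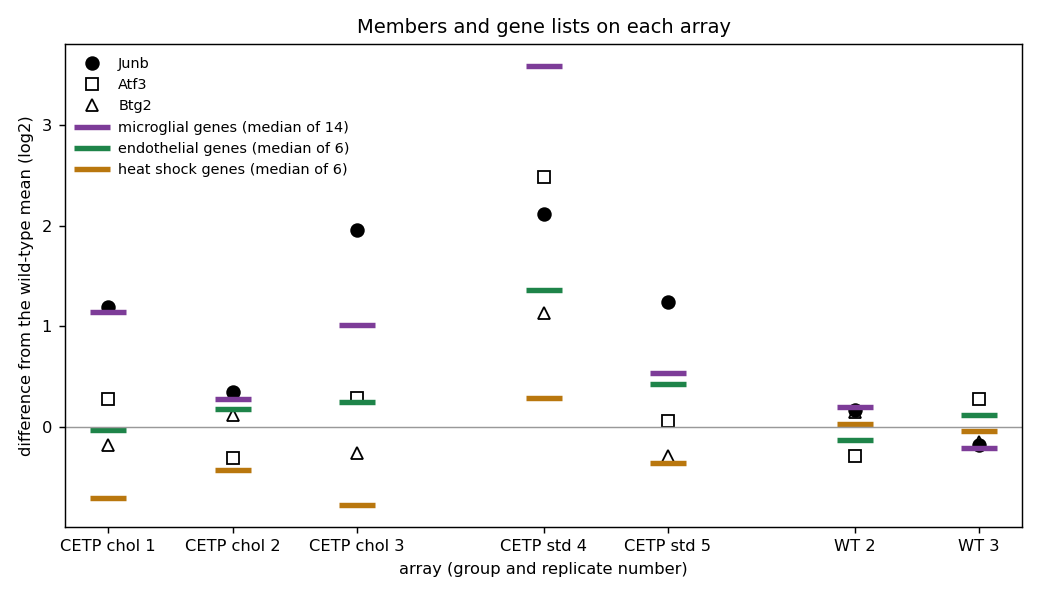
Difference from the wild-type mean on the log2 scale (vertical axis) on each of the 7 arrays, for the 3 members as symbols and for the medians of 3 gene lists as lines. On CETP standard-diet replicate 4 the microglial median is 3.58 and Atf3 2.48, while Junb also stands at 1.95 on cholesterol-diet replicate 3.

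The wider pathway could be followed only in part. Of 79 immediate early genes listed, 3 had a name here, the members themselves, so Fos, Egr1, Ier2, Nr4a1 and the rest were not analysed here. Of 41 leucine zipper genes around AP-1, 4 were named, and 0 of 4 passed the test against wild type in either CETP group. Bach2, a leucine zipper repressor, measured 8.16, 8.20 and 7.70 on the cholesterol diet, 8.33 and 9.13 on the standard-diet label, and 8.23 and 8.24 in wild type. It peaked on standard-diet replicate 5, not on replicate 4.

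Upstream of immediate early genes stand the mitogen-activated protein kinases and their nuclear targets, with 6 of 33 listed genes named. None of the 6 passed the limma test against wild type in any of the 3 comparisons. Mapk8ip1, a scaffold of the JNK kinases that activate Jun proteins, measured 13.11, 12.33 and 13.04 on the cholesterol diet, 12.29 and 12.58 on the standard-diet label, and 11.62 and 11.37 in wild type. On the deposited scale, like Junb, it lay above wild type on all 5 CETP arrays, a pattern shared by 5.12% of all probe sets. The difference for their mean was 1.18 ± 0.25 (SE) (limma, adjusted p = 0.459). Elk3, a partner of serum response factor, measured 7.29, 7.57 and 7.28 on the cholesterol diet, 8.60 and 7.23 on the standard-diet label, and 7.66 and 7.004 in wild type. As with Btg2, it exceeded the negative control median on replicate 4 of the standard-diet label and on wild-type replicate 2 alone. The list medians against wild type were 0.29 on the cholesterol diet and 0.46 on the standard-diet label, where the medians of all probe sets were -0.05 and -0.05. The 6 genes were named through a table chosen on the CETP diet groups, unlike all probe sets, so these medians are a description.

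Genes around Atf3 in the integrated stress response had 3 of 27 named. Shmt2, a mitochondrial serine enzyme induced by Atf4, measured 11.19, 10.54 and 11.79 on the cholesterol diet, 10.53 and 10.31 on the standard-diet label, and 10.41 and 10.23 in wild type. It was highest on the cholesterol diet and not on replicate 4, unlike Atf3. Chac1, a glutathione-degrading stress enzyme gene, was under the negative control median on all 7 arrays. Of the 3 genes 0 passed against wild type in either CETP group.

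Genes around Btg2 gave 3 named of 19 in its own family and the CCR4-NOT complex. Cnot2, a scaffold subunit, measured 10.69, 11.27 and 10.57 on the cholesterol diet, 11.15 and 11.86 on the standard-diet label, and 12.42 and 11.48 in wild type. Cnot6, a deadenylase subunit, differed from wild type by -0.88 ± 0.33 (SE) on the cholesterol diet (limma, adjusted p = 0.539) and by -0.23 ± 0.36 on the standard-diet label (adjusted p = 0.971). Both complex genes had lower means than wild type in both CETP groups, and neither passed. Among targets of the factor encoded by Trp53, 3 of 26 were named. Cdkn1a, the cell cycle inhibitor p21, measured 9.38, 9.40 and 10.00 on the cholesterol diet, 10.55 and 9.38 on the standard-diet label, and 9.92 and 9.81 in wild type, again highest on replicate 4. Rrm2b, a ribonucleotide reductase subunit, peaked instead at 9.34 on replicate 5, and none of the 3 passed the limma test in any comparison with wild type.

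Among the 951 named genes whose mean exceeded the highest negative control median, the profile most like that of Junb over the 7 arrays was Selplg, the gene of the P-selectin ligand, with Pearson's r of 0.960. Selplg measured 11.69, 10.29 and 12.25 on the cholesterol diet, 13.50 and 11.08 on the standard-diet label, and 10.08 and 9.69 in wild type. Next were Lyn, a Src family kinase gene (0.920), and Ptprb, a vessel phosphatase gene (0.912). Without replicate 4 these 3 kept r of 0.976, 0.913 and 0.869 with Junb over 6 arrays.

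The genes most like Atf3 were Tgfb1, a growth factor gene (0.974), the transporter gene Slc15a3 (0.963) and the receptor gene Tgfbr1 (0.962). Those most like Btg2 were the transcription factor gene Mef2c (0.961), the growth cone gene Gap43 (0.942) and Cd68, a gene of the lysosome in macrophages (0.935). For these 6 genes r was 0.27 to 0.60 over the other 6 arrays, so the likeness to Atf3 and Btg2 rested mostly on replicate 4. All of these genes were named through the same selection, which favours arrays that part the CETP diet groups, and no p is given.

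**Figure D4:**
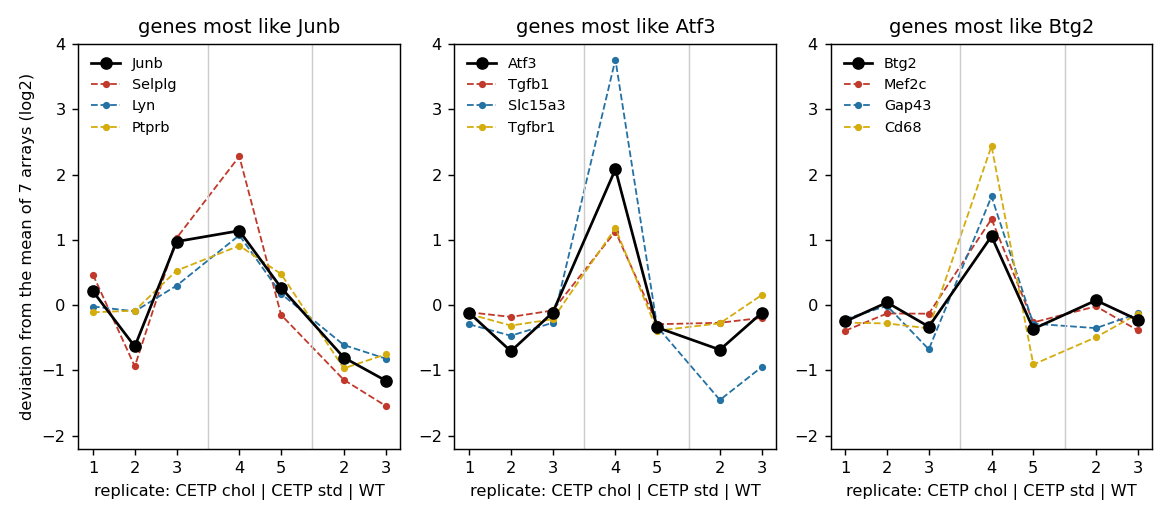
Deviation from the mean of the 7 arrays on the log2 scale (vertical axis) by replicate, for each member as a solid line and the 3 named genes of highest Pearson's r as dashed lines. Junb and its likest gene Selplg (r = 0.960) also vary among the other arrays, while the Atf3 and Btg2 panels are shaped by replicate 4 of the standard-diet label.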

How the data were processed

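The authors' deposited value table holds log2 values, 1 per probe set and array. Per the labels, 10 ng of total RNA went into each biotinylated cRNA. How signals were summarized and normalized is not stated in the sources used here. The deposited fold table holds a signed linear fold, treated as a score; per the file headers it is QIAGEN output. It does not name its groups, and 98.5% of its 1778 folds equalled, within 0.0051, 2 raised to the difference of biweight averages (constant 5) between the CETP standard-diet and cholesterol-diet arrays. This settled the log base, and the fold was used for nothing else. Depth is not defined for arrays, whose number limits the precision.

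From 28846 entries, 22206 probe sets were kept. The 5222 negative controls gave each array's median. Names came from the fold table, kept where the RefSeq symbol (GRCm38.p6) lies on the chromosome in the probe set's ID (1467 probe sets, 1463 genes). The probe set of highest mean stood for a gene. limma 3.58.1 (R 4.3.3) fitted 3 group means to all 7 arrays, with Benjamini-Hochberg adjustment over all probe sets at 0.05, two-sided. The fit had 4 residual and 5.38 prior degrees of freedom. The 5 CETP arrays were weighted equally in their mean. The fits were checked on simulated data. Alternatives left out each array or changed the normalization, filter, weights, prior, covariate or block. Each array carries a different animal number in the labels. Members, gene lists, named genes and tests were chosen with earlier results of these data known. Named genes were the members, the 3 likest to each, and up to 2 per other list by the size of the standard-diet difference from wild type. Hsph1, Aif1, Tyrobp and Fcer1g were named after their values were seen. A further list gene chosen by the rule is not reported here. Python 3.11.15, numpy 2.4.6, pandas 2.3.3 and matplotlib 3.10.9 were used.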

Additional observations from a re-analysis of the deposited data

How the results depend on the processing

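The refits gave 120 member differences from wild type, counted per member, comparison and setting, and none passed an adjusted p of 0.05 by limma. The direction of the main value was kept in 111 and turned in 9. Junb kept its direction in all of its refits. With the spike-in level as a covariate, however, its difference was only 0.052 ± 0.61 (SE) for the cholesterol diet against wild type. With the spike-in level as a covariate Btg2 turned to 0.48 for the cholesterol diet against wild type. Leaving out 1 array at a time, the difference from wild type ranged from -0.19 to 0.37 for Atf3 and from -0.25 to 0.046 for Btg2 on the cholesterol diet. It ranged from -0.29 to 1.13 for Btg2 on the standard-diet label and from -0.15 to 0.26 for Btg2 over all 5 CETP arrays. Between the CETP diet groups it ranged from -2.39 to 0.030 for Atf3 and from -1.23 to 0.18 for Btg2. The count of probe sets past the test was 0 in each comparison with wild type over all 7 arrays in the reported setting. It ranged from 0 to 13 for the standard-diet label when 1 array was left out (13 without replicate 5). In 39 other refits the count was 0. The filter on dim features kept 2 of the 3 members and removed Btg2.

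Replicate numbers 2 and 3 are shared by the cholesterol-diet and wild-type groups. Deviations of same-numbered arrays from their group means correlated at 0.0083 and 0.037, and the labels do not say that the number marks a pair. On these 4 arrays, with the replicate block, 7 probe sets passed, none of them a member, and Atf3 turned to -0.0081. The first digit of the animal number could be fitted as a block only for the cholesterol diet against wild type. Values near the negative control median, as for Btg2, limit what these arrays can show. The cause of these changes was not tested.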
